A study of Mus musculus with 6 samples.

Results

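The genes described here encode the proteins of the cytosolic ribosome. They were taken from the deposited gene table by biotype and name: protein-coding rows whose symbol is Rpl, Rps or Rplp followed by a number and, in some, a short suffix. The rule found 83 genes among the 54532 in the table, lying on 19 chromosomes. By role they were 30 small-subunit (40S) genes, 43 large-subunit (60S) genes, the 3 genes of the P stalk and 7 paralogs of core genes (Rpl3l, Rpl7l1, Rpl10l, Rpl22l1, Rpl36al, Rpl39l and Rps27l). Rpsa and Fau, which also encode ribosomal proteins, lie outside the name rule. Rps4l, a relative of Rps4x, is annotated as a transcribed pseudogene and was likewise not a member.

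The study sequenced RNA of mesenchymal stromal cells (MSCs), adherent cells able to form bone, from the alveolar bone of the mouse jaw. The 6 libraries were 3 of wild-type (WT) cells and 3 of cells from mice lacking Ccrl2 (KO), an atypical receptor for the chemoattractant chemerin. The series text describes both genotypes as exposed to TNFα, an inflammatory cytokine, and its title adds osteogenic induction. The count columns, however, carry the word Ctrl, which the labels do not explain, so the treatment of these libraries could not be checked. The labels name no strain, age, dose, time, knockout allele design or number of mice. The replicates are called biological; if they are cultures of the same mice, the p-values reflect culture-to-culture spread alone.

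Cytosolic ribosomal proteins coat the ribosomal RNA of both subunits, and each ribosome needs the core proteins in about equal numbers, so cells make them in step. Their mRNAs are short and abundant and begin with a run of pyrimidines, the 5′ terminal oligopyrimidine (5′TOP) motif, through which mTORC1 and the RNA-binding protein LARP1 control their translation. In bone, osteoblasts and their precursors make large amounts of collagen and depend on this machinery.

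Ccrl2 itself had 4, 3 and 0 counts in the WT libraries and 0 in each KO library, too few to check the genotype. Library totals lay between 16114974 and 18616433 counts. Stromal markers were abundant (11 of 11 tested, with a summed level of 57446 to 68180 CPM, counts scaled to a common library total, in WT and 39828 to 64266 in KO), and 1 of them was called lower in KO. Of the 12 macrophage markers 11 were tested and all 11 were called lower in KO, at a summed 345 to 397 CPM in WT and 86.1 to 95.3 CPM in KO. Of all tested genes, 2.31% were called lower in KO by the same test, described below. Lymphocyte, erythroid and epithelial markers reached at most 2, 5 and 9 counts in any library, and endothelial markers 64. KO replicate 2 stood apart: it had counts in 16428 genes, against 18928 to 19372 in the others, the lowest stromal sum and the highest mitochondrial share (2.32% of counts, against 1.09 to 1.56%).

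The starts of the genes were examined because the 5′TOP run sits there. RefSeq promoter sequences (GRCm38.p6) were matched by symbol for 63 of the 83 members. A C at the listed start followed without a break by pyrimidines, at least 5 bases in all, was found in 13 of the 63 (20.6%), and in 3.01% of all 27025 genes of that table. The windows below run from 15 bases before to 15 bases from the listed start, and capitals mark the pyrimidine run that begins at the start. The 6 members named in the results that have such a run, with runs of 5 to 10 bases, are followed by 3 that have none at the listed start, shown because their values are set apart below (Rpl13 for its even levels, Rpl22l1 and Rpl39l for their uneven ones).
Rps6, chr4:86857353-86857382, minus strand: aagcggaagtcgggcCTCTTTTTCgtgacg
Rps10, chr17:27635230-27635259, minus strand: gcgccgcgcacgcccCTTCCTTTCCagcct
Rps18, chr17:33955651-33955680, minus strand: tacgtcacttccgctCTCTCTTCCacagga
Rps27, chr3:90213634-90213663, minus strand: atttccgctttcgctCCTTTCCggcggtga
Rpl38, chr11:114668565-114668594, plus strand: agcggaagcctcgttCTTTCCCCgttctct
Rplp2, chr7:141447636-141447665, plus strand: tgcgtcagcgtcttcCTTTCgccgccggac
Rpl13, chr8:123102335-123102364, plus strand: ttccctttcgcctgattttgattggcgttt
Rpl22l1, chr3:28805493-28805522, plus strand: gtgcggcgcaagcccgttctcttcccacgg
Rpl39l, chr16:10170213-10170242, plus strand: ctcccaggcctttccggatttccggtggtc

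The listed start decides what such a search finds, since a start placed a few bases away breaks the run, as in the Rpl22l1 window, where pyrimidines lie downstream of it. Within the whole 300-base window (250 bases before the start and 50 from it) the ETS-type sequence CCGGAAG, on either strand, stood in 25 of the 63 (39.7%) and in 9.93% of all genes. The E-box CACGTG, which reads the same on both strands, stood in 6 (9.52%, against 8.09%). TATAAA on either strand stood in 7 (11.1%, against 15.7%). These are matches of letters and not binding sites.

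Taken as 1 group, ribosomal protein genes held 2.28, 2.47 and 3.05% of all counts in WT replicates 1, 2 and 3, and 2.86, 4.79 and 2.49% in KO replicates 1, 2 and 3. The mean was 2.60% ± 0.404 (SD, n = 3) in WT and 3.38% ± 1.24 (SD, n = 3) in KO. Counting error was small beside these gaps: the Wilson 95% interval of each share reached at most 0.0104 percentage points to either side, for counting error alone. The difference of 0.781 points became 0.0736 points without KO replicate 2, the one library above the range of the other 5. WT replicate 3 was the highest of those 5 and WT replicate 1 the lowest, so the 2 groups overlapped. In bulk RNA, a different share of cells with many ribosomes and a different amount of this RNA per cell cannot be told apart.

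**Figure D1:**
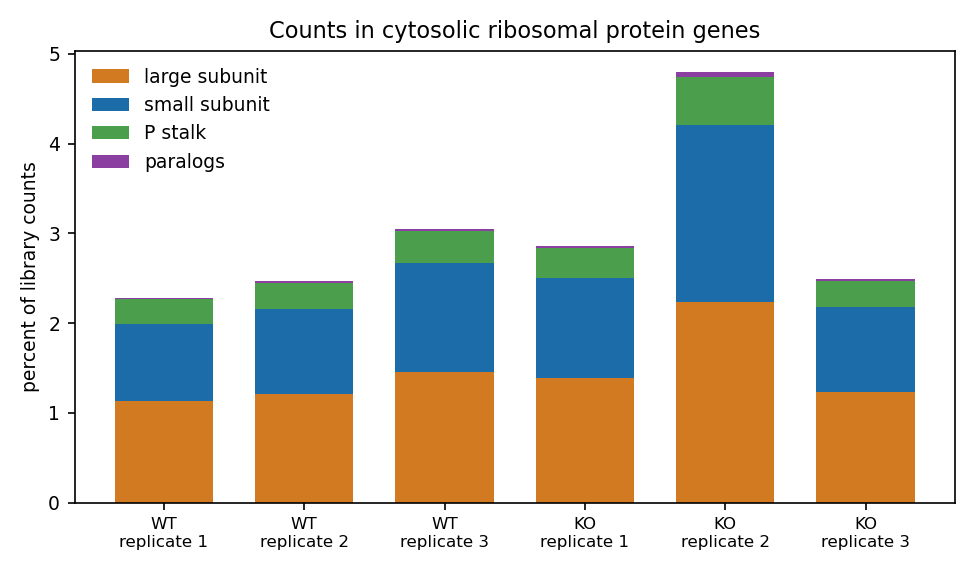
Percent of each library's counts that fell in cytosolic ribosomal protein genes (vertical axis, from 0), stacked by role, for the 3 WT and 3 KO libraries (horizontal axis). KO replicate 2 reached 4.79%, and the other 5 libraries lay between 2.28 and 3.05%.

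KO replicate 2 had the highest share and WT replicate 1 the lowest in each of the 4 roles. Small-subunit genes held 0.859, 0.948 and 1.21% of counts in WT and 1.11, 1.97 and 0.954% in KO, in replicate order. Large-subunit genes held 1.13, 1.21 and 1.46% in WT and 1.39, 2.23 and 1.23% in KO. The stalk held 0.278 to 0.361% in WT and 0.283 to 0.535% in KO, and the paralogs 0.0145 to 0.0231% and 0.0190 to 0.0523%. The ratio of small-subunit to large-subunit counts was not constant: it was 0.761, 0.785 and 0.832 in WT and 0.800, 0.883 and 0.775 in KO, and was highest in the library with the highest share.

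Of the 83 members, 81 had enough counts to be tested. Their mean level over the 6 libraries ran from 0.723 to 1727 CPM (median 293 CPM). Per kilobase of the principal mRNA it ran from 1.37 to 3461 CPM per kb (median 330). The most abundant per kilobase were the stalk genes Rplp1 (3461 CPM per kb) and Rplp0 (1135), then Rps18 (1018), Rpl13 (1013) and Rpl10 (965). Core proteins needed in like amounts thus had recorded mRNA levels that differed by orders of magnitude. The order of members hardly differed between libraries, with Spearman correlations of the per-kilobase level between 0.922 and 0.993 over the 81 genes, which share the same annotation, lengths and sequence copies in every library.

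Many of these values are uncertain because ribosomal protein genes have many near-identical copies. The table held 287 rows named as pseudogenes of 59 members, and 145 pseudogene rows had a count. In a median member, 48.4% of the 50-base words of the principal transcript also occurred in transcripts of other genes (range 0 to 98.6%). Rows named as pseudogenes held more counts than the member itself for Rpl17, Rpl21, Rpl23a and Rps10. Rps10, a small-subunit protein altered in human Diamond-Blackfan anemia, had 25 to 65 counts, against 1164 to 2108 on its 4 pseudogene rows. Rpl21 had 126 to 830 counts, against 1276 to 2988 on 15 pseudogene rows. How reads were split between the members and these rows was not tested. Pseudogene rows together held 0.0853, 0.0946 and 0.122% of counts in WT and 0.109, 0.201 and 0.0957% in KO, the same order of libraries as the members.

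Expressed as log2(CPM + 0.5) minus the mean of the 3 WT libraries, the members' median was -0.20, -0.07 and 0.31 in WT replicates 1 to 3, and 0.19, 1.04 and -0.08 in KO replicates 1 to 3. The shift of KO replicate 2 touched nearly every member. It had the highest CPM of all libraries in 77 of 81 members, against 31.6% of all tested genes. The exceptions were Rpl13 and Rps10, highest in KO replicate 1, Rpl7a, highest in KO replicate 3, and Rpl36al, highest in WT replicate 2; Rpl7a was singled out after its values were seen. The level in KO replicate 2 was at least 2-fold the WT mean in 43 members and at least 4-fold in 10, with a median ratio of 2.03 and quartiles of 1.58 and 3.25.

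The other 5 libraries also differed among themselves, and within each genotype. WT replicate 3 lay above both other WT libraries in 78 of 81 members and above KO replicate 3 in 72. KO replicate 1 lay above KO replicate 3 in 67. The lowest value of a member fell in WT replicate 1 for 52 members, in KO replicate 3 for 19, in WT replicate 2 for 8 and in KO replicate 2 for 2. Members high in KO replicate 2 were also those high in WT replicate 3 against the other WT libraries (Spearman 0.893 over 81 members; the baselines of both deviations share WT libraries).

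**Figure D2:**
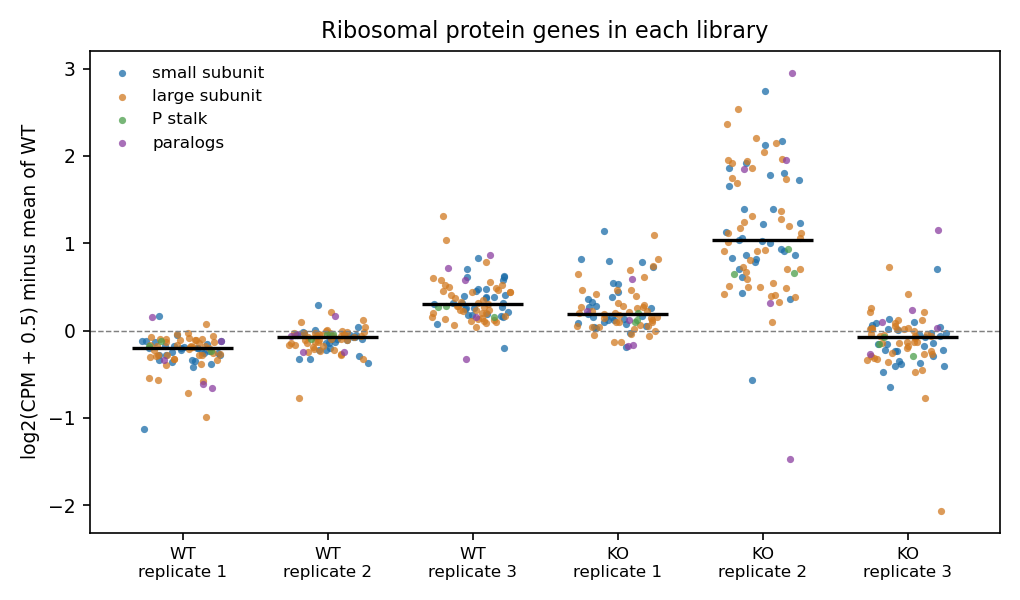
Each point is 1 of the 81 tested ribosomal protein genes in 1 library, plotted as log2(CPM + 0.5) minus the mean of the 3 WT libraries (vertical axis), with horizontal bars at the median and colors for the roles. The median of KO replicate 2 is 1.04, and those of the other libraries lie between -0.20 and 0.31.

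KO was compared with WT in edgeR's quasi-likelihood test, fitted to the whole table with Benjamini-Hochberg adjustment over all tested genes. None of the 81 members passed an adjusted p of 0.05 (0 of 81, against a background of 2.67% of 13705 genes called, 0.365% higher and 2.31% lower in KO). At an unadjusted p under 0.05 there were 2 of 81, Rpl39l and Rpl7l1, against 14.5% of all genes. DESeq2 called 0 as well, against 4.79% of its 13702 genes. At an unadjusted p under 0.05 it had 5 members, against 14.8% of all genes. The log2 fold change was above 0 in 80 of 81 members, against 52.2% of all genes. Its median was 0.43 (1.34-fold; quartiles 0.30 and 0.82), beside 0.02 over all genes, and the median standard error of a member was 0.318.

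Without KO replicate 2, the same test on 5 libraries again called 0 of 81, against 4.33% of 14096 genes, 0.837% higher and 3.49% lower in KO. No member had an unadjusted p under 0.05, in edgeR or in DESeq2, against 13.8% of all genes in edgeR. Of the 81, 52 had a log2 fold change above 0, against 51.2% of all genes, and the median was 0.03, beside 0.01 over all genes. The sign turned negative in 28 members when that library was left out. Every KO library lay above every WT library in 2 members, Rpl7l1 and Rpl13a, against 9.9% of all genes, and below in 0, against 11%.

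**Figure D3:**
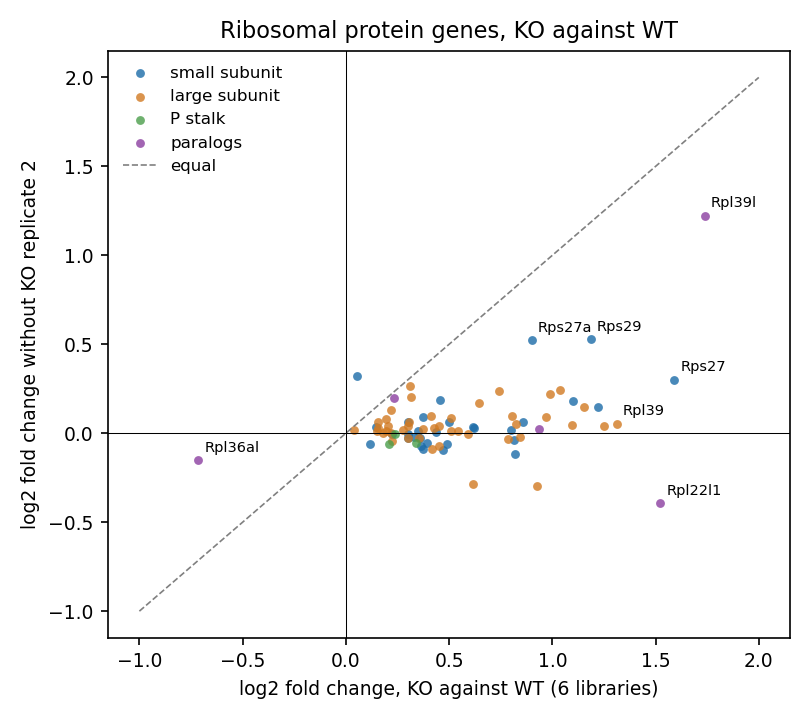
Log2 fold change of KO against WT from edgeR for each of the 81 tested members, with all 6 libraries (horizontal axis) and without KO replicate 2 (vertical axis); the dashed line marks equal values and colors mark the roles. With 6 libraries 80 points lie above 0 on the horizontal axis, and without KO replicate 2 the median is 0.03.

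Among small-subunit genes, 0 of 30 passed the test and all 30 log2 fold changes were above 0, with a median of 0.45 that was 0.01 without KO replicate 2. Rps6, the ribosomal protein phosphorylated by S6 kinase downstream of mTORC1, stood at 413, 430 and 510 CPM in WT and at 498, 800 and 477 CPM in KO, in replicate order. Its log2 fold change was 0.37 ± 0.19 (SE; edgeR adjusted p = 0.393), and 0.09 without KO replicate 2. KO replicates 1 and 3 lay inside the WT range. Rps18, in the head of the small subunit, stood at 453, 486 and 583 CPM in WT and 549, 869 and 481 CPM in KO. The WT range likewise held both other KO libraries, and the log2 fold change went from 0.30 ± 0.20 to -0.0030 without KO replicate 2.

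Rps27 and Rps29 are among the shorter small-subunit genes. Rps27 (252 coding bases) stood at 8.86, 8.56 and 16.9 CPM in WT and 19.7, 75.8 and 9.19 CPM in KO. KO replicate 2 was 6.62-fold the WT mean, and the log2 fold change was 1.59 ± 0.86 (SE; edgeR adjusted p = 0.453), the second highest of the tested members, and 0.30 without KO replicate 2. Rps27 shares 98.6% of its 50-base words with other transcripts, so reads may be split. Rps29 (168 coding bases), altered in human Diamond-Blackfan anemia, had 45, 38 and 94 counts in WT and 126, 218 and 44 in KO, with a log2 fold change of 1.19 ± 0.58 (SE; edgeR adjusted p = 0.390) and of 0.53 without KO replicate 2. KO replicate 3 lay between the 2 lower WT libraries, so the groups overlapped. Rps19, the gene most often altered in that anemia, stood at 196, 222 and 308 CPM in WT and 285, 559 and 186 CPM in KO, and its log2 fold change went from 0.49 ± 0.43 to -0.06 without KO replicate 2.

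Rps27a, which encodes ubiquitin fused to a small-subunit protein, had an unusual low value in 1 WT library. It stood at 102, 274 and 400 CPM in WT and 387, 708 and 366 CPM in KO. WT replicate 1 lay far below the other libraries, and the log2 fold change was 0.90 ± 0.55 (SE; edgeR adjusted p = 0.495) with 6 libraries and 0.52 without KO replicate 2. Rps4x, a small-subunit gene on the X chromosome, stood at 492, 546 and 679 CPM in WT and 581, 1038 and 593 CPM in KO, a log2 fold change of 0.35 ± 0.22 that was 0.01 without KO replicate 2. Rps10 went the other way in KO replicate 2, at 1.54 CPM against 2.14 to 2.90 CPM in WT and 3.93 and 2.58 CPM in the other KO libraries. With its pseudogene rows added, that library stood at 131 CPM and the WT libraries at 70.3 to 95.0 CPM.

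In the large subunit, 0 of 43 genes passed the test and all 43 log2 fold changes were above 0, with a median of 0.43 that was 0.04 without KO replicate 2. Rpl3 and Rpl4 have the longest coding regions of the tested members. Rpl3 (1209 coding bases), which reaches into the peptidyl transferase center, stood at 653, 677 and 764 CPM in WT and 746, 915 and 706 CPM in KO. Its log2 fold change was 0.16 ± 0.13 (SE; edgeR adjusted p = 0.567) and 0.03 without KO replicate 2. Rpl4, the longest member at 1257 coding bases and named after its values were seen, stood at 909, 980 and 1046 CPM in WT and 1086, 1229 and 996 CPM in KO. Both genes were highest in KO replicate 2. Rpl10, among the last proteins to join the subunit, stood at 638, 698 and 824 CPM in WT and 695, 1352 and 745 CPM in KO, with a log2 fold change of 0.35 ± 0.24 that was -0.02 without KO replicate 2.

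Rpl5 and Rpl11 form a particle with the 5S rRNA that can also bind MDM2, the ligase that degrades p53. Rpl5 stood at 432, 469 and 595 CPM in WT and 492, 934 and 538 CPM in KO, a log2 fold change of 0.38 ± 0.23 (SE; edgeR adjusted p = 0.478). Rpl11 stood at 261, 267 and 308 CPM in WT and 319, 452 and 255 CPM in KO, a log2 fold change of 0.28 ± 0.18 (SE; edgeR adjusted p = 0.498). Neither differed beyond the spread, and without KO replicate 2 both estimates were 0.02. Rpl7, which contacts the 5S rRNA, stood at 624 to 862 CPM in WT and at 728, 1176 and 769 CPM in KO.

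Rpl39 and Rpl38 are among the shorter large-subunit genes. Rpl39 (153 coding bases), a protein of the wall of the exit tunnel, stood at 24.3, 31.6 and 63.5 CPM in WT and 57.8, 215 and 26.3 CPM in KO. KO replicate 2 was far above all WT libraries, while the other KO libraries lay inside the WT range; the log2 fold change was 1.31 ± 0.87 (SE; edgeR adjusted p = 0.524) and 0.05 without it. Rpl38 (210 coding bases), needed in the mouse embryo for the translation of some Hox mRNAs, had 74, 140 and 347 counts in WT and 327, 592 and 33 in KO. Both groups thus held a library with few counts, and the fold went from 0.84 ± 1.06 to -0.02 (log2) without KO replicate 2. Rpl36a stood at 16.1, 18.5 and 28.4 CPM in WT and 27.4, 92.0 and 16.8 CPM in KO. Rpl41, the shortest member at 75 coding bases, named after its values were seen, stood at 86.8 to 157 CPM in WT and at 164, 346 and 78.3 CPM in KO.

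Rpl13 was the exception among abundant members. It stood at 731, 796 and 793 CPM in WT and 893, 826 and 700 CPM in KO, with KO replicate 2 between the other KO libraries. Its log2 fold change was 0.04 ± 0.12 (SE; edgeR adjusted p = 0.891). Rpl13a, which in human monocytes also leaves the ribosome to silence inflammatory mRNAs, stood at 29.8, 23.1 and 32.3 CPM in WT and 34.0, 41.2 and 32.6 CPM in KO. All its KO values lay above all WT values, by a narrow margin for KO replicate 3, and the log2 fold change was 0.32 ± 0.16 (SE; edgeR adjusted p = 0.383) or 0.20 without KO replicate 2. Rpl17 (3011 to 4232 counts) had a log2 fold change of 0.22 ± 0.11 (SE; edgeR adjusted p = 0.400), or 0.13 without KO replicate 2. Its KO replicate 2 was 1.31-fold the WT mean on its own row and 2.18-fold with its pseudogene rows added. Rpl23a, at the exit of the tunnel, stood at 18.6, 21.0 and 29.4 CPM in WT and 20.5, 94.5 and 17.5 CPM in KO. Its estimate went from 0.93 to -0.30 (log2) without KO replicate 2. For Rpl23a, KO replicate 2 was 4.11-fold the WT mean on its own row and 2.26-fold with its pseudogene rows added. Rpl21 had one high WT library on its own row, at 9.21, 7.82 and 34.8 CPM in WT and 18.1, 51.2 and 10.8 CPM in KO. Its pseudogene rows hold more counts, and with them it stood at 84.1, 87.0 and 130 CPM in WT and 110, 235 and 88.4 CPM in KO.

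The P stalk recruits the translation factors that hydrolyze GTP; Rplp0 anchors it and Rplp1 and Rplp2 form its arms. Rplp1 stood at 1324, 1398 and 1822 CPM in WT and 1611, 2860 and 1349 CPM in KO. Rplp0 stood at 1291, 1364 and 1559 CPM in WT and 1520, 2188 and 1326 CPM in KO. Rplp2 stood at 163, 186 and 230 CPM in WT and 220, 302 and 156 CPM in KO. In each of the 3, KO replicates 1 and 3 lay within or below the WT range and KO replicate 2 above it. Their log2 fold changes of 0.34, 0.24 and 0.21 did not pass the test (0 of 3), and without KO replicate 2 they were -0.06, -0.01 and -0.06.

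Among the paralogs, 0 of 5 tested genes passed the test. Rpl3l, the form of Rpl3 known from heart and skeletal muscle, had 2 counts in WT replicate 3 and in KO replicate 3 and 0 elsewhere. Rpl10l, a retrogene used in the mouse testis, had 0 counts in every library, which leaves room for a level of up to 3 counts, or 0.161 to 0.186 CPM depending on the library. Neither was tested. Rpl39l, a form of Rpl39 known from the testis, was low, with 2, 7 and 20 counts in WT and 16, 49 and 31 in KO. Its log2 fold change of 1.74 ± 0.69 (SE; edgeR unadjusted p = 0.0298, adjusted p = 0.281) was the highest of the members, and it was 1.22 without KO replicate 2 (adjusted p = 0.448). WT replicate 3 lay above KO replicate 1, so the groups overlapped. The Rpl39l to Rpl39 ratio per kilobase was 0.00362, 0.0105 and 0.0131 in WT and 0.0127, 0.0107 and 0.0482 in KO.

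Rpl22l1 had the largest ratio of KO replicate 2 to the WT mean. Rpl22 and Rpl22l1 encode alternative forms of the same protein, and in mouse cells Rpl22 represses Rpl22l1. Rpl22l1 stood at 15.5, 20.1 and 44.0 CPM in WT and 21.2, 189 and 19.8 CPM in KO, and KO replicate 2 was 7.13-fold the WT mean. Rpl22 stood at 85.0, 102 and 130 CPM in WT and 119, 226 and 82.6 CPM in KO. The ratio of Rpl22l1 to Rpl22 per kilobase was therefore 0.676, 0.733 and 1.25 in WT and 0.662, 3.10 and 0.892 in KO. Its log2 fold change of 1.52 ± 1.07 (SE; edgeR adjusted p = 0.545) was -0.39 without KO replicate 2, so its sign rested on that library. The principal mRNA of Rpl22l1 is 552 bases long and that of Rpl22 2051.

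Of the other 3 tested paralogs, only Rpl7l1 had groups that did not overlap. Rpl7l1, a nucleolar relative of Rpl7, stood at 84.5, 89.5 and 102 CPM in WT and 107, 114 and 108 CPM in KO. KO replicate 1 was the nearest to WT, and the log2 fold change of 0.23 ± 0.10 (SE; edgeR unadjusted p = 0.0482, adjusted p = 0.342) was 0.20 without KO replicate 2. Rps27l, a p53 target in human cells, stood at 44.0, 46.9 and 83.8 CPM in WT and 60.7, 217 and 59.7 CPM in KO, with a log2 fold change of 0.93 ± 0.63 that was 0.03 without KO replicate 2. Rpl36al had 18, 17 and 11 counts in WT and 12, 0 and 17 in KO, and was the only tested member with a negative log2 fold change (-0.72 ± 0.81; edgeR adjusted p = 0.696), which was -0.15 without KO replicate 2. The count of 0 in KO replicate 2 allows up to 0.185 CPM. Rpl36al shares 63.3% of its 50-base words with other transcripts.

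The deviation of a library from WT moved with the length of the gene. In KO replicate 2 the members with up to 250 coding bases (7 genes) had a median log2 deviation of 1.96, and the medians were 1.86 (12 genes up to 350), 1.28 (21 up to 450), 0.91 (13 up to 550), 0.60 (14 up to 700) and 0.57 (14 above 700). Spearman correlations of the deviation with coding length over the 81 members were 0.552, 0.565 and -0.685 in WT replicates 1 to 3 and -0.564, -0.751 and 0.610 in KO replicates 1 to 3. The 3 WT values share 1 baseline, so their signs are tied to each other. The difference between KO replicates 1 and 3, which uses no WT library, gave -0.612. Libraries with a larger share of ribosomal protein counts were thus those in which short members were highest.

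**Figure D4:**
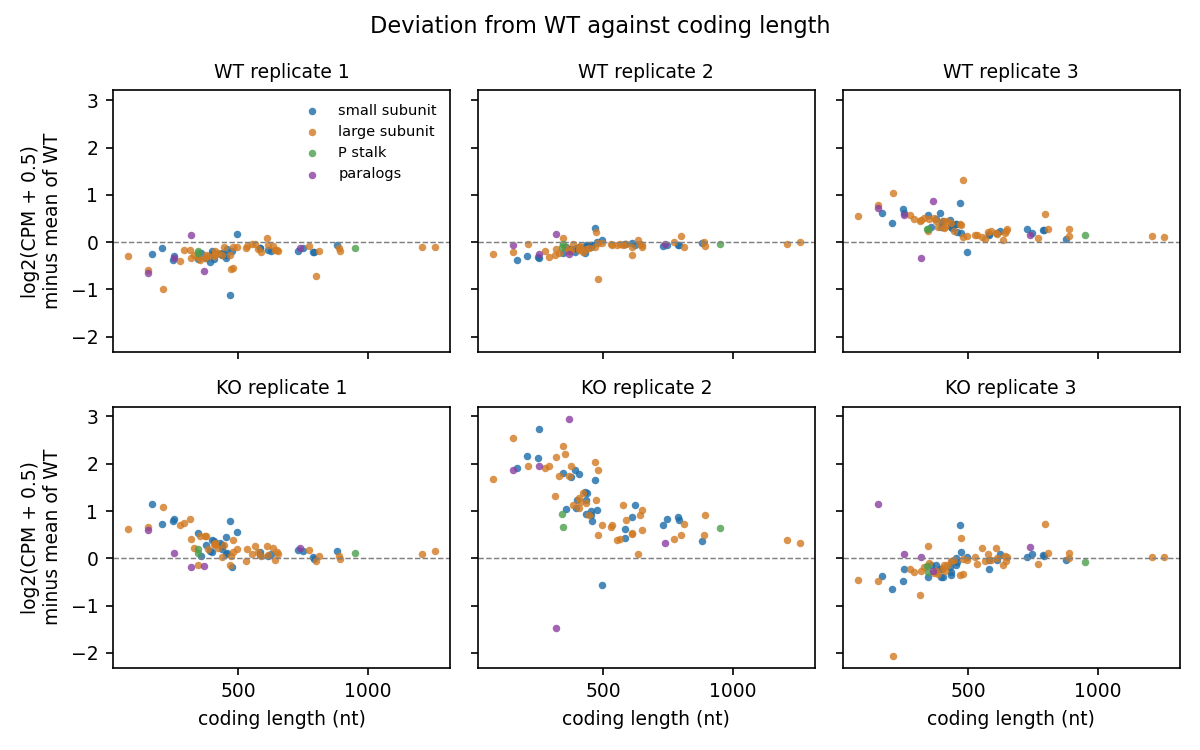
Log2(CPM + 0.5) minus the mean of WT (vertical axis) against coding length in nucleotides (horizontal axis) for the 81 tested members, in 1 panel per library, with colors for the roles. In KO replicate 2 the medians go from 1.96 at up to 250 bases to 0.57 above 700 bases.

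Other genes showed the length pattern too, around a lower level. Among mRNAs of up to 600 bases the median log2 deviation in KO replicate 2 was 1.78 over 21 members and 1.02 over 102 other protein-coding genes. From 800 to 1000 bases it was 0.85 over 16 members and 0.46 over 301 other genes, and from 1000 to 1500 bases 0.73 over 15 members and 0.19 over 1074 others. Above 3000 bases, with only 2 members, it was 1.45, against -0.07 over 6328 others. These members, Rps20 and Rps15a, named after their values were seen, have coding regions of 357 and 390 bases in principal mRNAs of 3706 and 5179 bases. In KO replicate 2 the Spearman correlation of the members' deviation was -0.433 with mRNA length and -0.751 with coding length. Whether these cells use mRNAs of the annotated lengths was not tested. After the length trend of the non-members was taken off each library, the median deviation of the members was -0.12, -0.03 and 0.15 in WT and 0.07, 0.47 and -0.07 in KO. With that trend as an offset in edgeR, chosen after seeing the data, the median log2 fold change was 0.19, 69 of 81 were above 0 and 0 were called (3 at an unadjusted p under 0.05). That fit called 423 genes of the whole table, and its median log2 fold change over all genes was 0.0098. Its shares of all genes above 0 and at that unadjusted p were not worked out. The part of RNA quality, of the mitochondrial share and of the macrophage and stromal markers in these differences was not tested.

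**Figure D5:**
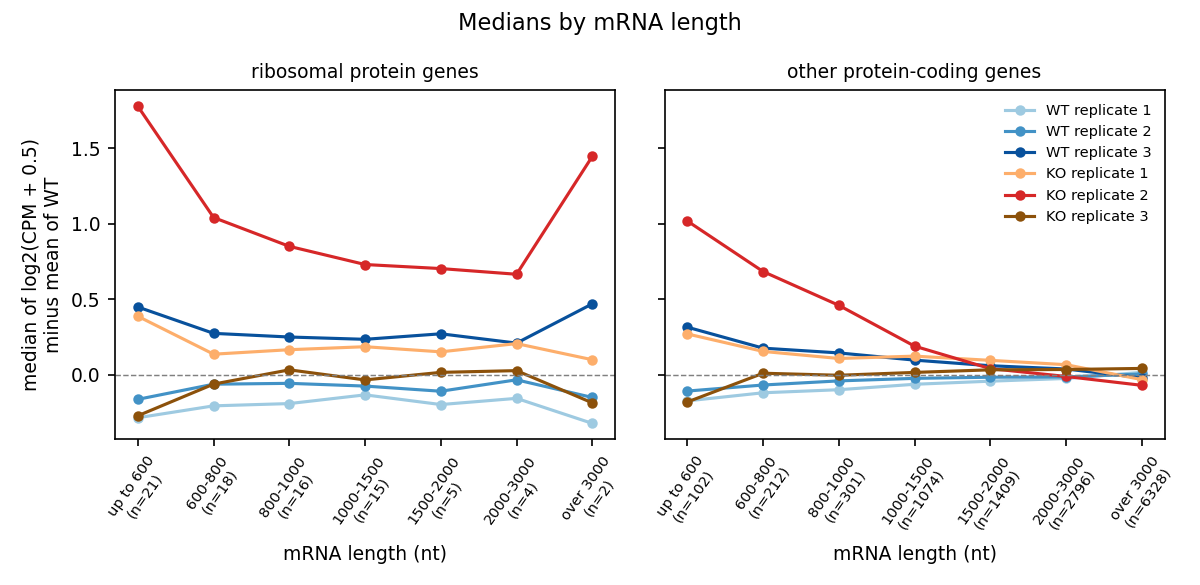
Median of log2(CPM + 0.5) minus the mean of WT (vertical axis) by class of mRNA length in nucleotides (horizontal axis, with the number of genes) for ribosomal protein genes (left) and other protein-coding genes (right), with 1 line per library. For KO replicate 2 the median at up to 600 bases is 1.78 for ribosomal protein genes and 1.02 for other genes, and at 2000 to 3000 bases 0.67 and -0.01.

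By the start sequences shown above, the members' medians lay close together. In KO replicate 2 the median log2 deviation was 1.20 over the 13 members with a pyrimidine run at the listed start (range -0.57 to 2.74), 0.997 over 48 tested members without one (range -1.47 to 2.95) and 1.03 over 20 members with no entry. The first group also had shorter coding regions, with medians of 390, 441 and 471 bases. The lowest value of the first group was that of Rps10, whose window has the longest run printed, of 10 bases. That value rests on 25 counts in KO replicate 2. When the pseudogene rows of Rps10 are added, that library was 1.59-fold the WT mean.

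Genes that work with the ribosome were followed in 8 lists, with Rpsa and Fau. No tested gene among the 279 passed edgeR's test in either direction, with 6 libraries or without KO replicate 2. With 6 libraries 31 (11.1%) had an unadjusted p under 0.05, against 14.5% of all genes, and DESeq2 called 0, with 48 such genes (17.2%, against 14.8%). Without KO replicate 2 there were 7 (2.51%, against 13.8%), and DESeq2 called 0, with 8 (2.87%, against 11.9%). Rpsa and Fau, the small-subunit genes outside the name rule, were also highest in KO replicate 2. Rpsa stood at 1222, 1337 and 1462 CPM in WT and 1412, 1985 and 1316 CPM in KO, and its log2 fold change was 0.21, or 0.0010 without KO replicate 2.

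The 18 translation factors with 5′TOP mRNAs had a median log2 fold change of 0.14 (13 above 0), which was -0.02 (9 above 0) without KO replicate 2. Pabpc1, the poly(A)-binding protein, stood at 1011 ± 16.5 CPM in WT and 872 ± 52.3 CPM in KO (SD, n = 3), with a log2 fold change of -0.23 (edgeR adjusted p = 0.315). Naca, which binds nascent chains at the ribosome, had one of 0.42 (adjusted p = 0.316), or 0.17 without KO replicate 2. The 8 snoRNA host transcripts, whose own starts are 5′TOP, had a median of 0.58, all 8 above 0, and 0.19 without KO replicate 2, again all 8. Snhg5 stood at 9.79, 9.43 and 13.2 CPM in WT and 13.9, 17.3 and 13.9 CPM in KO (edgeR adjusted p = 0.290), so its groups did not overlap. Every KO library lay above every WT library in 9.9% of all tested genes, and Snhg5 was picked for its small p.

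Ribosome assembly factors had like medians with and without KO replicate 2, although no gene was called. Their median log2 fold change over 40 genes was 0.20 (37 above 0) and 0.15 without KO replicate 2 (36 above 0). Nop56, a core protein of box C/D snoRNPs, stood at 55.1, 48.0 and 61.1 CPM in WT and 66.3, 79.1 and 72.8 CPM in KO, a log2 fold change of 0.39 ± 0.12 (SE; edgeR adjusted p = 0.166). Utp4, of the small-subunit processome, stood at 46.3, 44.5 and 44.5 CPM in WT and 54.3, 65.6 and 57.0 CPM in KO, a log2 fold change of 0.37 ± 0.12 (SE; adjusted p = 0.172). In both genes every KO library lay above every WT library, as in 9.9% of all tested genes. Both were picked for the smallest p of their list, which favors groups that do not overlap.

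Initiation factors outside the 5′TOP list had a median log2 fold change of 0.17 over 27 genes (0.07 without KO replicate 2). mTORC1 and its regulators had -0.04 over 17 genes (8 above 0), which turned to 0.05 (12 above 0) without KO replicate 2. Rheb, the GTPase that activates mTORC1, was at 0.46 (edgeR adjusted p = 0.218), or 0.25 without that library, and Eif4ebp2 at -0.26 (adjusted p = 0.311). The p53 list had -0.04 over 10 genes (-0.05 without KO replicate 2), with Sesn1 at -0.42 (adjusted p = 0.270). Mitochondrial ribosomal proteins, a separate family of nuclear genes with mRNAs of 1316 bases in the median, had 0.28 over 77 genes (73 above 0) and 0.11 without KO replicate 2 (65 above 0). Nuclear genes of oxidative phosphorylation, at 823.5 bases in the median, had 0.42 over 80 genes (77 above 0), close to the 0.43 of the cytosolic members, and 0.08 without KO replicate 2.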

How the data were processed

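The authors deposited 1 table of whole-number counts per gene for the 6 libraries, not normalized. The labels' protocols describe TRIzol extraction of total RNA and an NEBNext Ultra RNA library kit and do not mention strand, so overlapping genes may share reads. The submitters' processing notes name HISAT2, StringTie, SAMtools and mm9, without versions or roles, and no counting tool is recorded. Column names match the sample titles apart from the added word Ctrl, which the labels do not explain. Gene positions equal those of GENCODE M21 (GRCm38) for 53499 of 54409 shared identifiers (98.3%) and 81 of the 83 members, so they are not those of mm9. No row lacked a gene.

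CPM values are counts scaled to the library total. The test was edgeR's (version 4.0.16 in R 4.3.3; robust quasi-likelihood, TMM, filterByExpr, genotype only) on all genes, with Benjamini-Hochberg adjustment and a threshold of 0.05. DESeq2 1.42.0 and limma-voom (limma 3.58.1) were alternatives. The standard error is the absolute log2 fold change over the square root of the F statistic. The fits were tested on simulated counts. Lengths and 50-base words come from principal transcripts of GENCODE M21, and start sequences from RefSeq. Because exact permutation of 3 against 3 libraries reaches p = 0.10 at best, genes were judged from the fit over the whole table. Same-numbered libraries did not deviate together (correlations 0.137, -0.105 and -0.192), so the numbers were not taken as pairs.

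The members and all lists were chosen with earlier results of these data known. Named members are the paralogs and their partners, the stalk and members with known roles elsewhere. Also named are those highest per kilobase, of smallest p, of extreme fold change or of widest spread in the 5 other libraries. In some lists, genes are named from the 2 of smallest p. No gene is named from the lists of initiation factors, mitochondrial ribosomal proteins and oxidative phosphorylation. Rpl27a and Rps13 are named for their calls with no filter and Rpl24 for its low counts, and others are marked.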

Additional observations from a re-analysis of the deposited data

How the results depend on the processing

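No ribosomal protein gene was called under any scaling, filter, test or left-out library tried, with 1 exception. With no filter on low counts 2 of 82 were called, Rpl27a and Rps13, and 20 had an unadjusted p under 0.05. That fit called 883 genes of the whole table, against 366 in the main fit. Leaving out each library in turn gave 0 to 0 calls, a median log2 fold change of 0.03 (without KO replicate 2) to 0.65 (without KO replicate 3) and a KO minus WT share of 0.0736 to 1.23 percentage points, the same libraries giving the ends. Other denominators gave a share difference of 0.746 to 0.826 points. Without KO replicate 3, 47 of 81 members had an unadjusted p under 0.05. At the adjusted threshold, a different measure, that fit called 0 members and 182 genes of the whole table. For this fit and the fit with no filter, the share of all genes at that unadjusted p was not worked out. The 47 and the 20 therefore have no background to be read against. With the replicate number as a block the count of calls was 0 and the median 0.36 (79 above 0); without KO replicate 2 the block gave -0.02 (34 above 0) and 0 calls. Of the 30 named members tested, log2 fold changes turned negative with the length offset for Rplp1 (-0.10), Rps18 (-0.079), Rpl13 (-0.19), Rpl17 (-0.015) and Rps10 (-0.11); Rps10 was also -0.021 in limma-voom and -0.012 with the replicate block. The cause was not tested.

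With libraries left out in turn, the log2 fold change ranged from -0.39 to 2.08 for Rpl22l1, -0.024 to 0.51 for Rpl10, -0.091 to 0.69 for Rpl22, -0.0057 to 0.38 for Rplp0, -0.057 to 0.55 for Rplp1, -0.062 to 0.42 for Rplp2, -0.061 to 0.79 for Rps19, -0.023 to 1.54 for Rpl38, -0.0030 to 0.47 for Rps18, -0.30 to 1.31 for Rpl23a and -0.28 to 1.61 for Rpl21, each lowest without KO replicate 2. Rpl13 ranged from -0.051 to 0.13 and Rps10 from -0.33 to 0.32, lowest without KO replicate 1. No adjusted p of a named member crossed 0.05 in any of these. Depth limits Rpl36al, Rpl39l, Rps10, Rps29 and Rpl24, whose libraries hold from 0 to 218 counts.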
